A study of Mus musculus with 4 samples.

Results

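The ETS transcription factors examined here are the 9 genes Fli1, Erg, Spi1, Spib, Ets1, Ets2, Etv6, Elf1 and Gabpa. They were taken by gene symbol, as every probe set whose platform annotation names exactly one of them, which gave 19 probe sets for 9 of the 18193 genes on the array. The measurements come from lymphoid-primed multipotent progenitors (LMPPs), an early bone marrow population that gives rise to lymphoid and myeloid cells. Libraries came from Lyl1-null C57Bl/6 mice (n = 2) and from wild-type C57Bl/6 mice (n = 2), all aged 6 to 8 weeks. All cells were sorted by flow cytometry as lineage-negative, Sca-1+ and c-Kit+ with high Flt3, and their amplified, labelled RNA was hybridised to 1 array per library. The design asks which genes of this population depend on Lyl1, and it cannot separate an action of Lyl1 in these cells from an earlier one, since the labels describe a null allele in the animals and not a deletion made in the sorted cells. The labels do not say whether each library came from its own mouse, so the p-values here rest on a spread among libraries that may be technical.

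ETS factors share a DNA-binding domain that reads a GGAA core, and they differ in the bases they prefer around it and in the partners they bind. In blood, Erg and Fli1 act in stem cells and, with endothelial cells, share many targets with Tal1, Lyl1, Lmo2, Gata2 and Runx1. PU.1, the product of Spi1, drives myeloid and early B-cell programmes in a dose-dependent way. The Lyl1 promoter is itself known as a target of ETS factors in mouse blood progenitors.

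Promoter windows show where such sites could lie. RefSeq windows of 300 bases on GRCm38.p6 (250 before and 50 after an annotated start) were found for 6 of the 9 genes (Erg, Spib, Ets2, Etv6, Elf1 and Gabpa), 9 windows in all, and for Lyl1. An extended ETS motif, CCGGAA, and a PU.1-type motif, GAGGAA, were searched on both strands. Both contain the GGAA core, so every match is also a match to the core, which stands in 96.0% of the 32851 windows searched. Not every chromosome was searched. The windows of Lyl1 and Gabpa are shown because they hold both motifs. The first of the Elf1 windows is shown because Elf1 is the factor whose level differed most below. Capitals mark either motif, read 5′ to 3′ on the strand of the gene, where TTCCGG is CCGGAA on the opposite strand.
Lyl1, chr8:84701207-84701506, plus strand: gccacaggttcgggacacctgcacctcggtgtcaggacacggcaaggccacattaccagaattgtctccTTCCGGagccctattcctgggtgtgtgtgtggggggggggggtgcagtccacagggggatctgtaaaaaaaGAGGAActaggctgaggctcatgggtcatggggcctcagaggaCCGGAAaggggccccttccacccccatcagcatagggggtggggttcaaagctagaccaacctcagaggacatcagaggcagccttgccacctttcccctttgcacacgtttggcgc
Gabpa, chr16:84834874-84835173, plus strand: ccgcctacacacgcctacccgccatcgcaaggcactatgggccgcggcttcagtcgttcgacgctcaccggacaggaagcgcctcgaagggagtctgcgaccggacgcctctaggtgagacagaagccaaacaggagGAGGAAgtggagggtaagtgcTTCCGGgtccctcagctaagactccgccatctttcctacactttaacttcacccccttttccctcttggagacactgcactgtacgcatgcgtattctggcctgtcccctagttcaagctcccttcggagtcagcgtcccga
Elf1, chr14:79480944-79481243, plus strand: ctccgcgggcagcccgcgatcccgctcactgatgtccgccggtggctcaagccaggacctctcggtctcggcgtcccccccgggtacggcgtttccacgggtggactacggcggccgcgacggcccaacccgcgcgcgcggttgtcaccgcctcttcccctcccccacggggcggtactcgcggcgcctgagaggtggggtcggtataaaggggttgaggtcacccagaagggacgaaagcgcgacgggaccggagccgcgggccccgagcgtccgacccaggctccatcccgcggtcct
The Lyl1 window holds CCGGAA 2 times, beginning at positions -181 and -67 from the start, and GAGGAA once, at -110. The Gabpa window holds CCGGAA once, at -92, and GAGGAA once, at -113. The Elf1 window shown holds neither, and neither do the other 7 windows of the 9, which include a second Elf1 window. Over the windows searched, 14.9% hold CCGGAA and 28.3% hold GAGGAA. The E-box CANNTG is the core bound by basic helix-loop-helix proteins such as Lyl1 with its partners. It stands in 3 of the 9 windows of the ETS genes, against 72.3% of the windows searched. The Elf1 window shown holds it 0 times, and the second Elf1 window (chr14:79515424-79515723) holds it 3 times. A match describes these letters in this window and is not a measured binding site.

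Lyl1 was read first, as a check of the labels. Its probe set (1419120_at) read 5.14 and 10.32 in the Lyl1-null libraries, which are labelled replicates 1 and 2 and are called KO1 and KO2 here, against 12.34 and 12.29 in the wild-type libraries (log2 RMA values, as are all levels here). On the linear scale these are 0.692% and 25.1% of the wild-type mean, so the second library goes against its label. That library stood apart in other ways as well. Pairs that included it had 518 to 859 genes with a difference of 2-fold or more, against 42 to 128 in pairs among the remaining 3 libraries, and it read 14.26 for Xist and 8.44 for the Y-linked Eif2s3y, where the others read 5.81 to 6.30 and 10.07 to 10.15. The levels of the ETS factors are therefore given for each of the libraries labelled Lyl1-null. Some other genes are given only as a difference over both together. The sorting markers Kit and Flt3 were read in all 4 libraries, at 9.56 and 8.97 for Kit in the libraries labelled Lyl1-null against 10.07 and 10.27 in wild type, and at 11.80 and 11.26 for Flt3 against 11.92 and 12.12. Ly6a, which encodes Sca-1, was not analysed here.

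Across the libraries of each group, no ETS factor passed the test. Of the 9 genes, 8 were tested, each from its brightest probe set, where the mean of that probe set over the 4 libraries was at least 5.69, the median of such means, and 0 of the 8 passed at an adjusted p of 0.05 in limma. The background of calls was also near 0: 0.00893% of the 11196 genes tested were called. At an unadjusted p under 0.05 there were likewise 0 of the 8, against 766 of all genes. All 8 had a negative difference (Lyl1-null minus wild type), with a median of -0.22 on the log2 scale beside -0.05 over all genes tested, of which 6374 were negative and 4818 positive. The sign of Ets1 turned positive with quantile normalization (0.07), and that of Erg with the mean of its probe sets (0.09). Groups did not overlap for 4 of the 8, Erg, Etv6, Fli1 and Gabpa, all lower in the libraries labelled Lyl1-null. Over all genes tested, 24.0% had groups that did not overlap in this direction. In sorted populations, fewer cells of a type and less RNA per cell cannot be told apart.

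**Figure D1:**
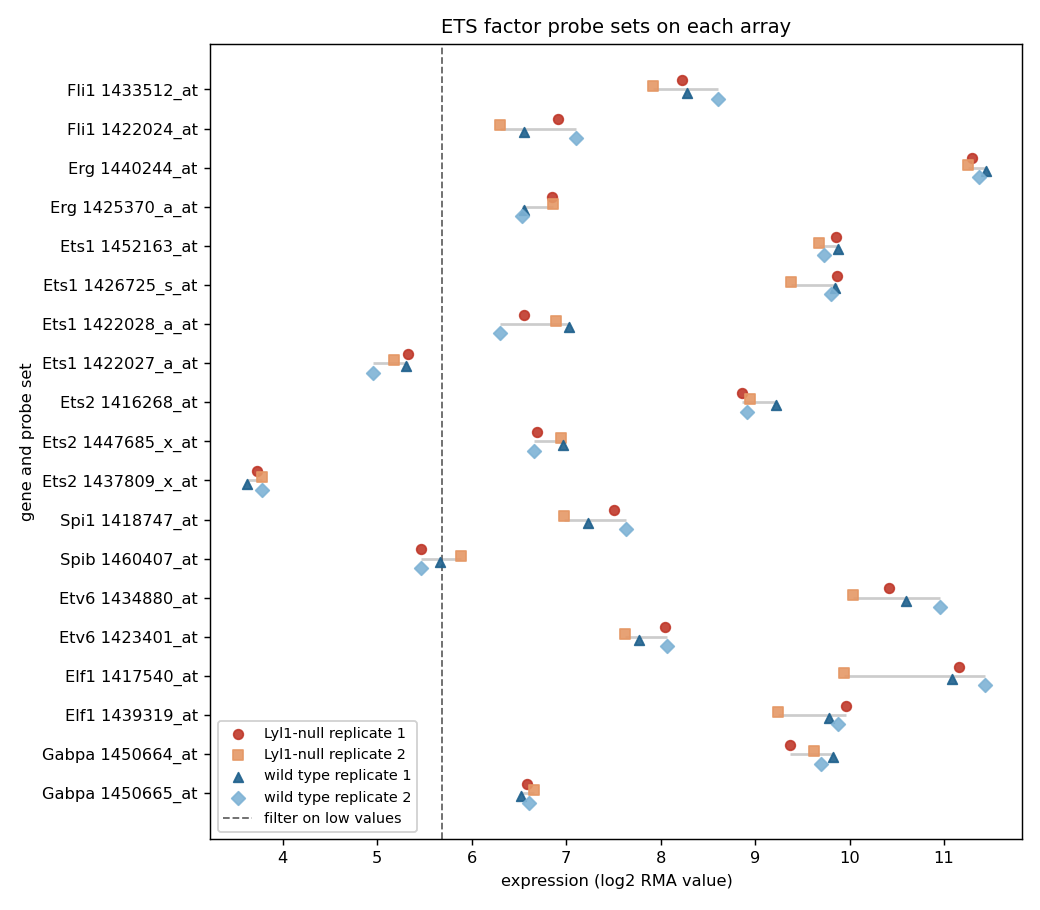
Log2 RMA values of the 19 ETS probe sets (rows) in the 2 libraries labelled Lyl1-null (circles and squares) and the 2 wild-type libraries (triangles and diamonds), with the filter at 5.69 as a dashed line. The library labelled Lyl1-null replicate 2 lies lowest of the 4 for both probe sets of Elf1, Etv6 and Fli1, while levels of different probe sets are not comparable with each other.

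With each library taken on its own, Elf1 passed in the library labelled KO2 and no factor passed in the one labelled KO1, where 0.196% of genes were called. Elf1, which acts in lymphoid cells and in mouse binds regulatory elements of Tal1 and Lyl1, read 11.15 and 9.94 (1417540_at) in the libraries labelled KO1 and KO2, against 11.08 and 11.44 in wild type. The first of these lies between the wild-type values and the second lies 1.14 below the lower of them. The group difference was -0.71 (SE 0.41, adjusted p = 0.644). In the library labelled KO2 Elf1 fell by 1.32 on the log2 scale, to 40.0% of the wild-type mean (SE 0.20, adjusted p = 0.0149). In the library labelled KO1 the difference was -0.10 (SE 0.20, adjusted p = 0.953). Of the 11196 genes, 182 lay at or below the Elf1 difference in the library labelled KO2 and 3656 in the one labelled KO1. KO2 minus KO1 was -1.22, against a difference of 0.36 between the wild-type libraries, and this gap was not tested. Kit, Flt3, Cd34, Cd27 and Ptprc were the 5 genes read among those that mark the sorted population. In the library labelled KO2 5 of these were lower than the wild-type mean, with a median difference of -0.89. In the one labelled KO1 4 were lower, with a median of -0.22. Over all 11196 genes, 6360 and 5789 were lower in these libraries, with medians of -0.08 and -0.01. The part of the sorting genes in the Elf1 value was not tested.

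The second Elf1 probe set moved the same way by less. It read 9.96 and 9.25 (1439319_at) in the libraries labelled Lyl1-null, against 9.79 and 9.87 in wild type. Its difference in the library labelled KO2 was -0.58 (SE 0.17, adjusted p = 0.0692 over the 18848 probe sets tested), so it did not pass, while 1417540_at passed there too (adjusted p = 0.0209). The call for Elf1 rests on a fit with 1 library labelled Lyl1-null, which is assumed to vary like the wild-type libraries. In that fit 14.8% of all genes were called and 10.8% were called lower, so 1 of 8 is near the background. Without a filter on low values Elf1 no longer passed (adjusted p = 0.0725). The tested genes whose values over the 4 libraries, less their own mean, lay closest to those of Elf1 were Tbc1d10c, Zfp219 and Gcn1, at Euclidean distances of 0.029, 0.042 and 0.047.

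Etv6, a transcriptional repressor needed by blood stem cells in mouse bone marrow, came next. Its brighter probe set (1434880_at) read 10.41 and 10.03 in the libraries labelled Lyl1-null and 10.59 and 10.96 in wild type. The groups did not overlap, by a gap of 0.18, which is smaller than the 0.37 between the wild-type libraries. The difference was -0.55 (SE 0.22, adjusted p = 0.644, 95% interval -1.10 to 0.002). It was -0.36 in the library labelled KO1 (adjusted p = 0.828) and -0.74 in the one labelled KO2 (adjusted p = 0.0575). The dimmer probe set (1423401_at) read 8.05 and 7.62 against 7.77 and 8.07, and its groups overlapped, with a difference of -0.08. The 2 probe sets thus agreed in sign in the library labelled KO2, at -0.74 and -0.30, and not in the one labelled KO1, at -0.36 and 0.13.

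Fli1 and Erg are close relatives, and neither passed with all libraries. Fli1 lies next to Ets1 on mouse chromosome 9, and Erg next to Ets2 on chromosome 16. Fli1, which is needed for megakaryocytes, read 8.22 and 7.92 (1433512_at) in the libraries labelled Lyl1-null and 8.28 and 8.60 in wild type. Those groups were 0.06 apart at their nearest, and the difference of -0.37 (SE 0.20, adjusted p = 0.644) has an interval of -0.88 to 0.14. Its second probe set (1422024_at) read 6.92 and 6.30 against 6.55 and 7.10, with wild type spanning the first library labelled Lyl1-null. In the library labelled KO2 the probe sets read 69.5% and 69.2% of the wild-type mean, at differences of -0.52 and -0.53 with adjusted p-values of 0.125 and 0.193 over probe sets.

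Erg, which maintains blood stem cells, had 2 probe sets that differed in direction. The brighter one (1440244_at) read 11.29 and 11.25 in the libraries labelled Lyl1-null and 11.44 and 11.37 in wild type. The other (1425370_a_at) read 6.84 and 6.85 against 6.55 and 6.53. Each pair of libraries was tighter than the gap between the groups in the second probe set, where members of a group were 0.010 and 0.027 apart and the groups 0.29. Neither passed, with differences of -0.13 (SE 0.16, adjusted p = 0.762) and 0.31 (SE 0.16, adjusted p = 0.635). Both directions were the same in the 2 libraries labelled Lyl1-null, at -0.11 and -0.15 for the first probe set and 0.30 and 0.31 for the second. The letter a in the second name marks probes shared by transcripts of 1 gene, and the sources used here do not say which Erg transcripts each probe set reads.

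**Figure D2:**
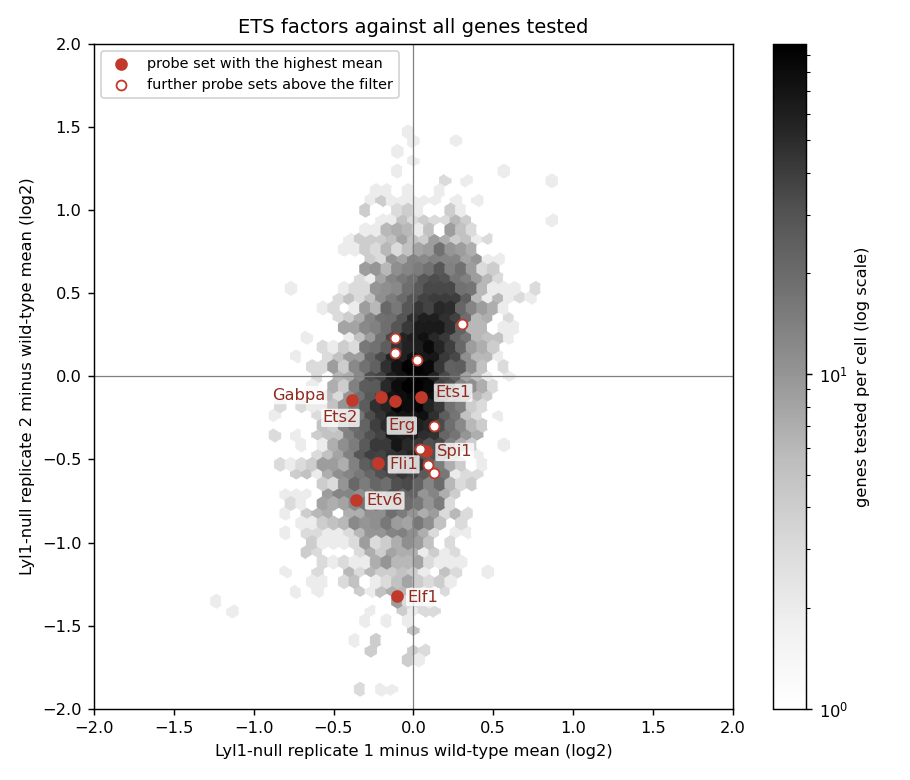
Difference of each library labelled Lyl1-null from the wild-type mean (log2), KO1 across and KO2 up, for the ETS genes (filled points, brightest probe set), their further probe sets above the filter (open points) and all genes tested (grey, within 2 of 0 on each axis). Elf1 lies at -0.10 across and -1.32 up, and the other filled points lie within the bulk of genes.

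With all libraries, the intervals of the remaining tested factors included 0, as did those of the factors above. Ets1, a factor of T, B and natural killer cells, read 9.85 and 9.68 (1452163_at) in the libraries labelled Lyl1-null and 9.88 and 9.73 in wild type. That is a difference of -0.04 (SE 0.17, adjusted p = 0.943, interval -0.46 to 0.38). A second bright Ets1 probe set (1426725_s_at), whose s marks probes shared by several transcripts, read 9.86 and 9.38 against 9.84 and 9.80, with only the library labelled KO2 below the rest. Another (1422028_a_at) read 6.55 and 6.90 against 7.03 and 6.30, and the fourth (1422027_a_at), below the filter, read 5.32 and 5.18 against 5.30 and 4.95. The probe sets of Ets1 thus gave no shared direction.

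Ets2, which is activated by the Ras and MAP kinase pathway, read 8.86 and 8.94 (1416268_at) in the libraries labelled Lyl1-null and 9.22 and 8.91 in wild type, a difference of -0.17 (SE 0.18, adjusted p = 0.740). Its 1447685_x_at, whose x marks probes that may also bind other transcripts, read 6.69 and 6.95 against 6.96 and 6.66. Its 1437809_x_at, at 3.73 and 3.78 against 3.62 and 3.77, was below the filter. In each of these the groups overlapped.

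Spi1, which encodes PU.1, read 7.51 and 6.98 (1418747_at, its 1 probe set) in the libraries labelled Lyl1-null and 7.22 and 7.63 in wild type. The library labelled replicate 1 lay between the wild-type values and the one labelled KO2 lay 0.25 below the lower of them. The difference was -0.18 (SE 0.25, adjusted p = 0.786, interval -0.82 to 0.45), at 0.08 and -0.45 in the libraries labelled KO1 and KO2. Spib, the close relative of PU.1 known from B cells and plasmacytoid dendritic cells, read 5.46 and 5.89 (1460407_at, its 1 probe set) against 5.67 and 5.46. It was below the filter in the mean, 5.62, and was not tested, and only the library labelled KO2 rose above the filter.

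Gabpa, which pairs with Gabpb1 or Gabpb2 to form GABP and regulates Il7r in lymphoid cells, read 9.37 and 9.62 (1450664_at) in the libraries labelled Lyl1-null and 9.82 and 9.69 in wild type. Its groups did not overlap, by a gap of 0.08. The difference was -0.26 (SE 0.18, adjusted p = 0.654), at -0.39 in the library labelled KO1 and -0.14 in the one labelled KO2. Gabpa was thus the factor with the largest difference in the library labelled KO1, where 707 of 11196 genes lay at or below it, and it did not pass there (adjusted p = 0.772). A second Gabpa probe set (1450665_at) read 6.58 and 6.66 against 6.52 and 6.60, with overlapping groups and a difference of 0.06.

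Over the 16 probe sets above the filter, 12 had a negative difference and 4 a positive one, with a median of -0.17 beside -0.06 over all probe sets tested. Groups did not overlap for 4 lower and 1 higher of these, where 25.4% and 17.6% of all probe sets did so. None of the 16 passed in limma with all libraries, where 0.0106% of probe sets were called, and 0 had an unadjusted p under 0.05. In the library labelled KO1 the probe sets split evenly, 8 negative and 8 positive, with a median of -0.04 and 0 calls against 0.0849% of all. In the library labelled KO2 there were 12 negative and 4 positive, with a median of -0.22 beside -0.10 over all probe sets. The one call there was Elf1, where 13.0% of probe sets were called. The median size of the difference between the wild-type libraries was 0.32 for the 8 tested factors and 0.15 over all genes tested.

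Other genes of the ETS family were read from a list of 17, of which 15 were on the array and 9 passed the filter. Of the 9, 5 were positive and 4 negative, with a median of 0.16, and 0 passed in limma with all libraries. Elf2, a close relative of Elf1, went the opposite way from it in the library labelled KO2. It read 9.16 and 10.46 (1418275_a_at) in the libraries labelled Lyl1-null and 9.57 and 9.37 in wild type, so the library labelled KO1 was lowest and the one labelled KO2 highest. In the library labelled KO2 it passed (0.996, adjusted p = 0.0215), where 3.94% of genes were called higher. Its other probe sets, 1428045_a_at and 1418276_at, read 8.24 and 6.15 there, against 8.29 and 8.44 and against 6.19 and 6.20 in wild type, and did not share that direction, at -0.12 and -0.05.

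Elk4, a partner of serum response factor, read 12.10 and 11.97 in the libraries labelled Lyl1-null and 12.33 and 12.39 in wild type (-0.33, adjusted p = 0.644), with no overlap. Etv5, of the PEA3 group, read 6.32 and 7.01 against 7.13 and 7.18 (-0.49, adjusted p = 0.644). These had the smallest unadjusted p-values of the list, and Etv5 was lowest in the library labelled KO1. The difference was 0.16 for the brightest of 3 tested Elk3 probe sets and -0.41 and -0.64 for the others, of which the last passed over probe sets in the library labelled KO2 (-1.06, adjusted p = 0.0244 in limma). It was 0.16 for Etv2, 0.21 for Elf3, 0.25 for Erf, -0.19 for the brightest Etv3 probe set and -0.08 for Elk1. Further Etv3 probe sets above the filter were at -0.15 and -0.53, the last at -0.96 in the library labelled KO2. Below the filter and untested were Etv4, Elf4, Elf5, Ehf, Spic and Spdef, and Etv1 and Fev were not analysed here.

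**Figure D3:**
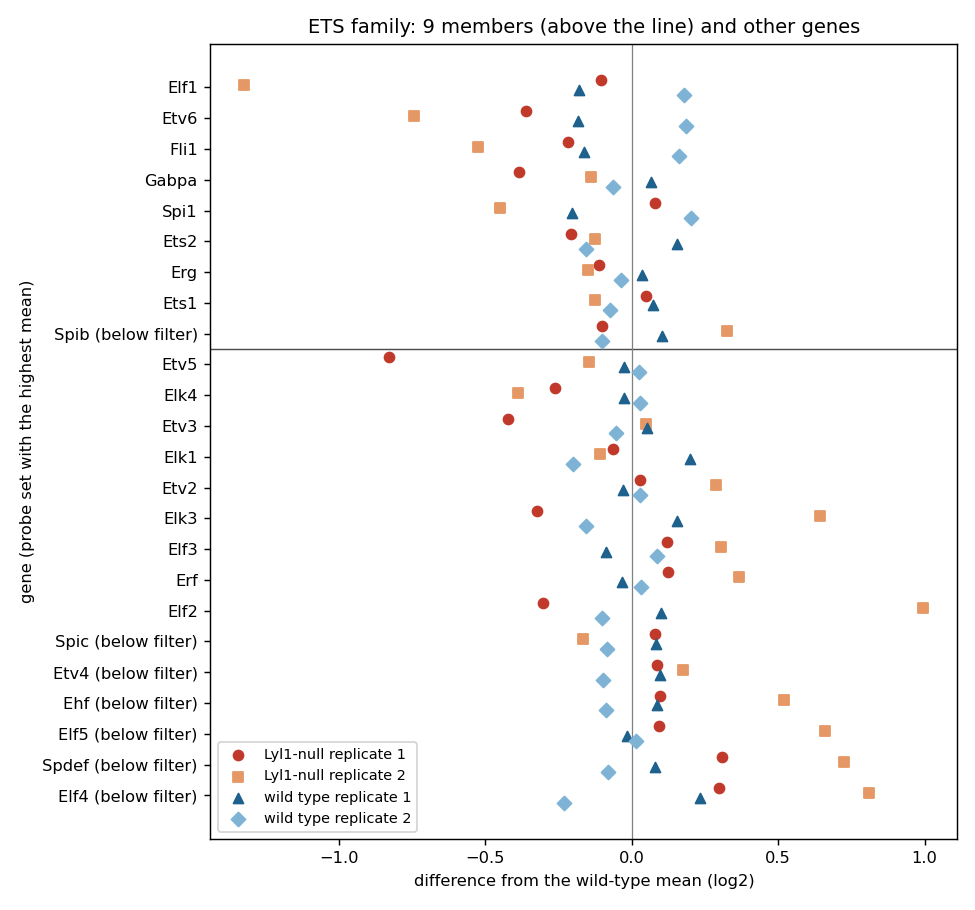
Difference of every library from the wild-type mean (log2) for the 9 ETS factors (above the line) and the other 15 family genes (below it), 1 probe set per gene. Squares, the library labelled KO2, lie farthest left for Elf1 (-1.32) and farthest right for Elf2 (0.996).

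Partners and regulators of ETS factors had mostly negative differences, without a call when all libraries were fitted. Of 15 tested genes of 16, 11 were negative and 4 positive, with a median of -0.10, and 0 passed. Gata2, which binds with Erg and Fli1 in stem cells, read 9.54 and 9.77 in the libraries labelled Lyl1-null and 10.48 and 10.47 in wild type (-0.82, SE 0.17, adjusted p = 0.574). Gfi1, a repressor that opposes PU.1, read 9.36 and 9.35 against 10.24 and 9.84 (-0.68, adjusted p = 0.644). The wild-type values of both lay above both libraries labelled Lyl1-null. The brightest probe sets of the GABP partners Gabpb1 and Gabpb2 differed by 0.001 and -0.09. The other Gabpb1 probe set was at -0.39, and its groups did not overlap. Further Gabpb2 probe sets above the filter were at -0.44 and -0.006, with overlapping groups. The former was at -0.03 in the library labelled KO1 and -0.85 in the one labelled KO2.

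Known targets of ETS factors went both ways. Among PU.1 targets of myeloid progenitors, 19 of 24 were tested, 7 positive and 12 negative, with a median of -0.04 and 0 calls. Fcer1g, a signalling chain of Fc receptors, read 8.39 and 8.01 in the libraries labelled Lyl1-null and 7.30 and 7.49 in wild type (0.80, adjusted p = 0.644). Mpo, the neutrophil granule peroxidase, read 11.39 and 10.68 against 11.79 and 12.30 (-1.01, adjusted p = 0.644). Csf1r, a classical PU.1 target, differed by -0.24.

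Of ETS targets in megakaryocytes and stem cells, 10 of 18 were tested, 6 positive and 4 negative, with a median of 0.14 and 0 calls. Pf4, a platelet chemokine, read 7.62 and 7.23 in the libraries labelled Lyl1-null and 8.61 and 8.22 in wild type (-0.99, adjusted p = 0.623). Selp, the adhesion molecule P-selectin of platelets and endothelium, read 6.48 and 6.56 against 5.95 and 5.98 (0.55, adjusted p = 0.644). Of ETS targets in the B lineage, 9 of 12 were tested, 6 positive and 3 negative, with a median of 0.07 and 0 calls. Blk, a kinase of B cells, read 7.43 and 7.57 against 6.62 and 6.96 (0.71, adjusted p = 0.644), and Il7r, the interleukin-7 receptor, read 10.25 and 10.03 against 9.37 and 9.62 (0.65, adjusted p = 0.644). No member of these lists passed in limma with all libraries or in the library labelled KO1. In the one labelled KO2 5 of the 62 tested genes of the other ETS genes, partners and targets were called higher (8.06%) and 7 lower (11.3%), beside 3.94% and 10.8% of all genes. The share called lower is near that background. Called were, among others, Runx1 by its brightest probe set (0.99) and Ldb1 (-1.59). Runx1 binds with ETS factors, and Ldb1 is the adaptor of the Lmo2 complexes. The other Runx1 probe sets did not share that direction in the library labelled KO2. Those above the filter were at -0.13, -0.46, -0.33 and -0.03 there, and the one below it was at -0.64.

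**Figure D4:**
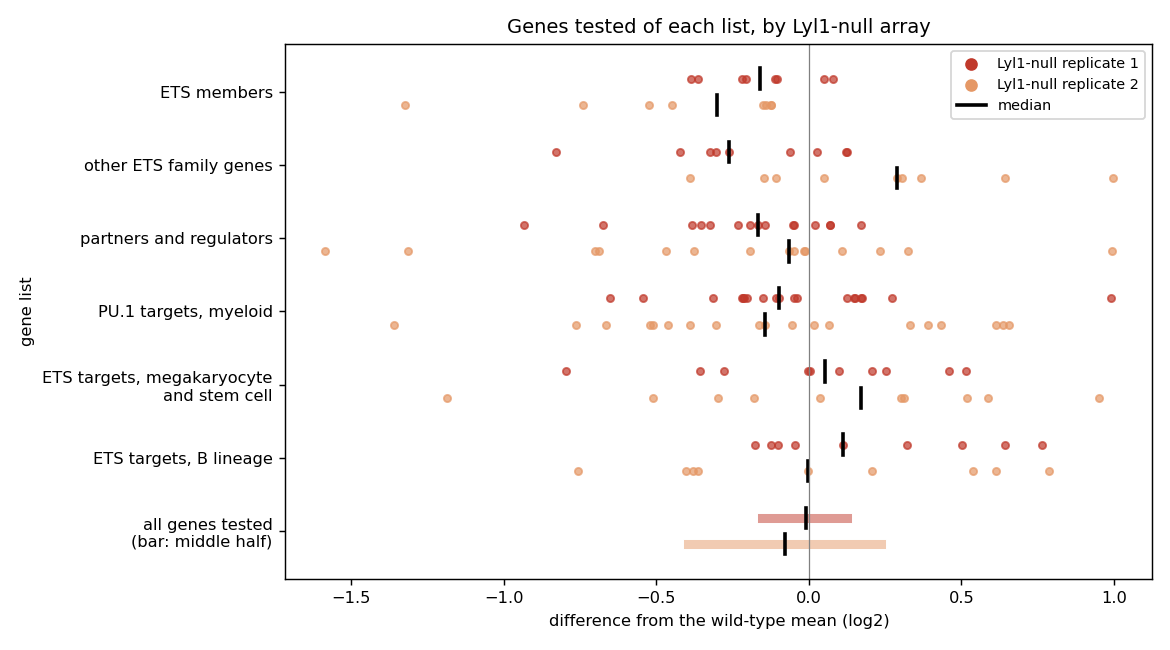
Difference from the wild-type mean (log2) of each tested gene of 6 lists in the libraries labelled KO1 (upper row of each pair) and KO2 (lower row), with medians as black bars and the span from the lower to the upper quartile of all genes tested at the bottom. The ETS factors had medians of -0.16 and -0.30 in these libraries, the other family genes -0.26 and 0.29.

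Markers of other cells moved with the groups in some lists. Neutrophil markers, 7 of 8 on the array and 4 above the filter, had a summed level of 10.86 and 10.58 in the libraries labelled Lyl1-null and 9.25 and 8.77 in wild type (log2 of the sum of linear values), and all 4 tested were higher. In limma 3 of these 4 were called higher in the library labelled KO1, where 0.0893% of all genes were, and 4 of 4 in the one labelled KO2, where 3.94% were. Spi1 is also expressed in neutrophils. Endothelial markers, 8 of 8 on the array and 4 above the filter, summed to 10.91 and 10.51 against 11.89 and 11.92, mostly through Egfl7, at 10.49 and 9.90 against 11.70 and 11.73. Of the 4 tested, 2 were higher and 2 lower. Kdr was higher, at 6.96 and 7.06 against 6.84 and 6.66, and Esam read 7.29 and 7.33 against 7.28 and 7.31. Cdh5, Tie1 and Emcn were below the filter in every library. Plasmacytoid dendritic cell markers summed to 12.58 and 12.10 against 12.44 and 12.37, megakaryocyte markers to 9.86 and 9.73 against 9.99 and 9.81, B-cell markers to 11.43 and 11.16 against 10.96 and 11.02, T and natural killer markers to 8.40 and 8.72 against 8.24 and 8.19, monocyte markers to 10.97 and 11.27 against 11.13 and 11.22, and erythroid markers to 11.19 and 11.27 against 11.27 and 10.96. The part of these cells in the values of the ETS factors was not tested.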

How the data were processed

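Per the submitters' processing notes, the deposited log2 values came from RMA, which subtracts background, brings array distributions together and condenses the probes of a set into 1 value. The version, and which arrays were normalized together: not given in the sources used here. Column medians were 5.68 and 5.76 in the libraries labelled Lyl1-null and 5.65 and 5.65 in wild type, and no further normalization was applied. Of 45037 probe sets, 34945 had 1 gene symbol, 932 several and 9160 none. Among the probe sets with 1 symbol, 34741 had a gene identifier that matched a mouse RefSeq gene.

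Differences were fitted in limma 3.58.1 (R 4.3.3) by lmFit and eBayes as two-sided tests, with Benjamini-Hochberg adjustment over 11196 genes or 18848 probe sets, and intervals of 95%. A gene's value is that of its brightest probe set by mean, kept where this mean was at or above the median over probe sets. Each library labelled Lyl1-null was also fitted alone against wild type. The fit was also run on simulated data with known changes and independent noise for each gene and library. That noise held no deviation of a whole library, so the simulation cannot speak to the library labelled KO2. Only 4 arrays limit the precision of every value. The ETS genes and gene lists were chosen with earlier results of these data known. Named genes were the 9 factors with all probe sets, Lyl1 and sorting markers. Per list they were the members past the threshold or else the 2 with the smallest p. Csf1r, the GABP partners, Runx1 and Ldb1 were added after their values were seen. So were Egfl7, Kdr, Esam, Cdh5, Tie1, Emcn, Cd34, Cd27 and Ptprc among markers. Likeness to Elf1 was the Euclidean distance of centred values. Alternatives were filters, the mean of probe sets, quantile normalization, median centring, a trended prior, the replicate number as a block, and leaving out each library.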

Additional observations from a re-analysis of the deposited data

How the results depend on the processing

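With all libraries, 0 ETS factors passed in each alternative that kept both libraries labelled Lyl1-null, and leaving out 1 library gave 0 to 1 factors, 0 to 1 ETS probe sets and 1 to 1652 genes, against 1 gene with all. The single factor, Elf1, came without the library labelled KO1; without the one labelled KO2 there were 22 genes and 0 factors. Genes called numbered 4 without a filter or with a trended prior, 2 with quantile normalization or median centring, and 0 with the mean of probe sets (limma, 736 at an unadjusted p under 0.05). Same-numbered libraries deviated in opposite directions (r = -0.41 over 11196 genes). With 2 libraries per group, this value cannot show whether equal numbers mark a pairing. The replicate block gave 3 genes and 0 factors, and the crossed pairing, chosen after seeing the data, gave 1 gene and 0 factors. Leaving out each library, Spi1 ranged from -0.45 to 0.080 and Ets1 from -0.13 to 0.048.

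Quantile normalization turned Ets1 to 0.065 with all libraries, and in the library labelled KO2 turned Ets1 to 0.037, Ets2 to 0.078 and Gabpa to 0.031. The mean of probe sets turned Erg to 0.088 with all libraries, Erg to 0.095 and Elf1 to 0.013 in the library labelled KO1, and Erg to 0.082 and Ets2 to 0.032 in the one labelled KO2. None of these values passed. The library labelled KO1 gave 22 genes, against 2 without a filter, 8 with the mean of probe sets, 60 with quantile normalization and 55 with median centring. The one labelled KO2 gave 1 factor and 1652 genes. There, no filter gave 0 factors (limma, 3 at an unadjusted p under 0.05) and 5 genes, the stricter filter 2 factors, Elf1 and Etv6, and 1347 genes, and median centring 3 factors, with Fli1, and 2802 genes. Median centring moved the median of all genes in that library to -0.20, against -0.08 as deposited, and relative to it Elf1 was at -1.24 either way. Over 6 alternatives Elf1 ranged there from -1.44 to -0.95, with adjusted p-values of 0.00220 to 0.0725. The cause of these shifts was not tested. RMA values carry no detection calls, so signal over background is unknown for Spib and other dim probe sets.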
